A study of Mus musculus with 13 samples.

Results

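Cerebella of Sam68 knockout mice at postnatal day 10 (P10) were compared with knockout cerebella at postnatal day 1 (P1), to describe early cerebellar development in the absence of Sam68. The members are the 6 libraries whose labels give the genotype Sam68 ko, 3 at P10 (numbered 10, 11 and 12) and 3 at P1 (13, 14 and 15), out of 13 in the series. The submitters' design note can be read as 2 knockout RNAs, and the sample labels, which were followed for n, list 3 at each age. The other libraries were wild type at P1 (n = 2), P10 (n = 2) and P30 (n = 3). All were total RNA of whole cerebella from mice of C57BL/6 background, sequenced as stranded mRNA libraries made with a modified TruSeq kit. The labels name no treatment, and how Sam68 was removed is not given in the sources used here. No label states that replicates of a group are different animals, so the p-values measure the spread between libraries, which may be technical.

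In the first days after birth the mouse cerebellum is dominated by dividing granule cell precursors, Purkinje cells that are still extending dendrites, and migrating young neurons. Over the following days granule cells leave the cell cycle, migrate inward and form synapses, while oligodendrocytes begin to make myelin. Sam68, encoded by Khdrbs1, is a STAR-family protein that binds RNA in the nucleus and regulates the choice of alternative exons, including exons of the neurexin genes. Neurons also include many microexons, very short exons that usually keep the reading frame and change small surface loops of a protein.

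Expression was deposited as cRPKM, an RPKM that corrects the length of each transcript for the part to which reads can be mapped, and changes are differences of mean log2(cRPKM + 1), P10 minus P1, here called log2 units. Splicing was deposited as percent inclusion (PSI), the share of transcripts that carry an exon, keep an intron or use a splice site. The knockout libraries held about 12540000 to 14570000 reads on exon events, with some reads counted at several events. The depth of the cRPKM values, estimated from the steps between low values, was smaller, about 269000 to 1479000 reads in 5 knockout libraries and about 85000 in library 15. Library 15 listed 11033 genes at 0, of which 1709 had at least 50 reads on exon events on average, so a 0 in this library can be a missed gene. Between knockout replicates the correlation across genes was 0.817 to 0.934 for log2 cRPKM and 0.972 to 0.99 for exon junction reads summed per gene. Those junction sums, scaled to library size (RPM), were also fitted as a second measure of expression.

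Khdrbs1, the targeted gene, had 5.42, 4.22 and 8.5 cRPKM in knockout libraries 13, 14 and 15 at P1 and 2.06, 1.28 and 3.59 in libraries 10, 11 and 12 at P10, against 56.2 to 74.4 in the 4 wild-type libraries of these ages. All 6 knockout libraries lay far below every wild-type one. In the junction sums, which take exon events only, Khdrbs1 had 0 reads in 4 knockout libraries. Libraries 14 and 10 had 0.151 and 0.224 RPM, and the 4 wild-type libraries 2.14 to 2.27. Not every junction of the gene enters these sums. An event at its 11453 nt intron held 31 to 50 reads in the knockout libraries and 1019 to 1507 in these wild-type libraries. The remaining cRPKM fell by 1.10 log2 units between the ages (SE 0.28, limma adjusted p = 0.0286), while the junction reads did not pass (0.03, adjusted p = 0.924), and the cRPKM call was lost without library 13, 15, 10 or 11.

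Between P1 and P10 the knockout cerebellum gained myelin and mature granule cell transcripts and lost transcripts of early neuronal differentiation and axon guidance. Of 14063 tested genes 1430 changed (10.2%, limma, Benjamini-Hochberg adjusted p below 0.05), 785 upward (5.58%) and 645 downward (4.59%). In 1414 of the 1430 the 3 libraries of one age did not overlap the 3 of the other, which held for 24.7% of all tested genes. The median absolute change of the called genes was 1.249 log2 units, and the median over all tested genes was 0.04. The count was 886 without library 10, and 886 without library 11. Of the 1430 genes 1058 also had junction reads, and in 1046 of those the junction change had the same direction, with 940 called there too. By junction reads 3564 of 11053 genes changed (32.2%), 1614 upward (14.6%) and 1950 downward (17.6%).

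The oligodendrocyte and myelin list showed the largest median of the 28 gene lists. Mbp, which encodes the myelin basic protein of compact myelin, had 14.03, 20.2 and 4.28 cRPKM at P1 in libraries 13, 14 and 15 and 1943, 2041 and 1005 at P10 in libraries 10, 11 and 12. The change was 7.06 log2 units (SE 0.43, adjusted p = 2.88e-06). Library 12 was the lowest of the P10 libraries and still far above each P1 value. Mag, an adhesion protein of the inner myelin wrap, rose from 1.2, 1.71 and 0 to 84.1, 75.4 and 44.5 cRPKM. Mobp, a basic protein of myelin, rose from at most 0.47 to 58.5, 43.9 and 20.5. Cnp, an enzyme of the oligodendrocyte cytoplasm, rose by 3.27 log2 units and Bcas1, a marker of early myelinating cells, by 2.79.

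Of the 27 tested members of the oligodendrocyte list 21 rose, 0 fell and 6 did not pass. Their median change was 2.45 log2 units, and 2.71 without the 5 members listed at 0 in every P1 library. In junction reads 9 of 10 rose, and with the compared groups alone in the fit 14 of 26 rose in cRPKM. In these bulk libraries more cells of a type and more RNA per cell cannot be told apart. Of 24 Bergmann glia and astrocyte genes 9 rose and 3 fell in cRPKM (median 0.49), but in junction reads 4 rose and 4 fell of 12 (median 0.05). Gfap, the intermediate filament of astrocytes, went from 2.2, 10.9 and 4.02 cRPKM to 237, 294 and 339 (5.64 log2 units, SE 0.42, adjusted p = 1.33e-05). The water channel Aqp4 rose by 4.02, the calcium-binding protein S100b by 3.48 and the lipid carrier Apoe by 1.69. By contrast the glutamate transporter Slc1a3, already abundant in radial glia at birth, had 267, 303 and 274 cRPKM at P1 and 322, 345 and 375 at P10, and did not pass (0.30, adjusted p = 0.197). The Bergmann glia gene Gdf10 also did not pass (adjusted p = 0.923).

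**Figure D1:**
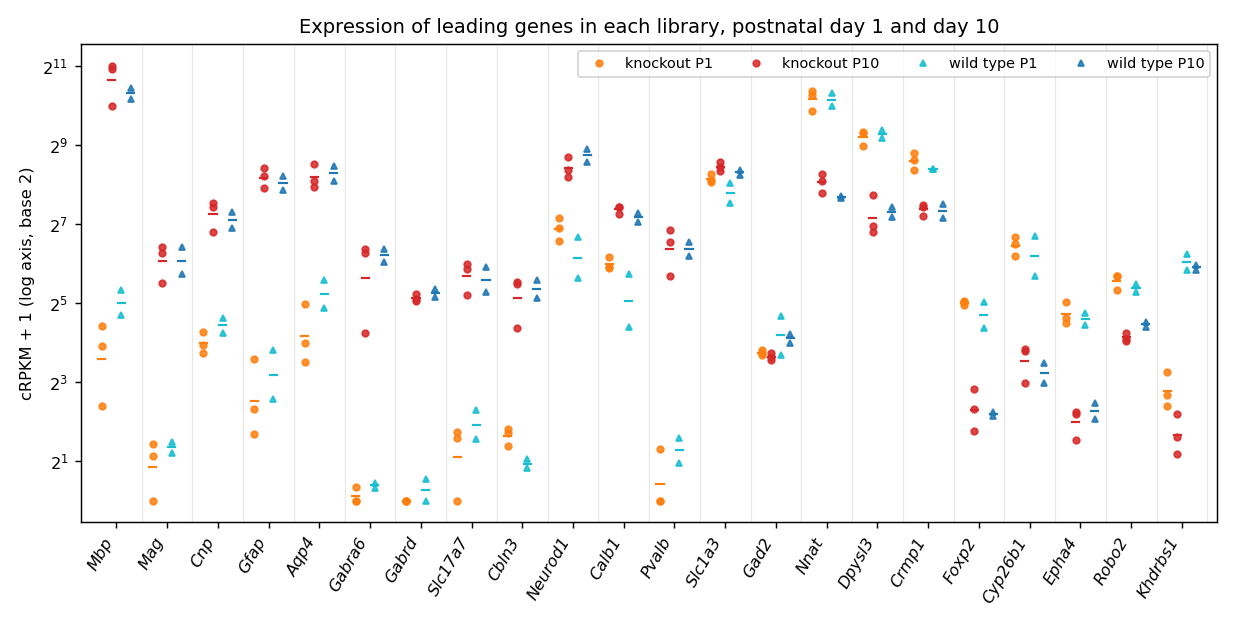
Expression of 22 genes in each knockout and wild-type library at P1 and P10, as cRPKM + 1 on a log axis (base 2); points are libraries and short bars the mean of the log values. Myelin, astrocyte and granule cell genes on the left sit far higher at P10 in both genotypes, for example Mbp above 1000 cRPKM in all 3 knockout P10 libraries, and the genes from Nnat to Robo2 sit lower.

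Granule cells, the most numerous neurons of the cerebellum, contributed the next group. Gabra6, the GABA receptor subunit that marks mature granule cells, had 0, 0.28 and 0 cRPKM at P1 and 75.1, 81.9 and 17.8 at P10. Library 12 held less than either other P10 library. The rise was 5.50 log2 units (SE 0.43, adjusted p = 2.14e-05). Gabrd, its partner subunit in extrasynaptic receptors, was listed at 0 in all 3 P1 libraries and at 33.1, 36.5 and 31.8 cRPKM at P10. Its junction reads rose from 1.85, 2.64 and 1.59 RPM to 252, 283 and 185 (6.31 log2 units, adjusted p = 7.22e-12). The vesicular glutamate transporter Slc17a7 went from 1.98, 2.34 and 0 to 56.5, 62.0 and 35.5 cRPKM, and the cerebellin Cbln3, secreted at granule cell synapses, from 2.5, 1.63 and 2.29 to 45.2, 43.4 and 19.6. Of 28 mature granule cell genes 16 rose, 0 fell and 12 did not pass (median 1.40), and in junction reads 14 rose and 1 fell of 18. Of 20 genes of maturing granule cells 12 rose and 1 fell (median 0.92, 6 with the compared groups alone in the fit), and in junction reads 6 rose and 2 fell of 13 (median 0.45). Among these Neurod1, the transcription factor of young granule cells, rose from 93.8, 117 and 140 to 408, 292 and 329 cRPKM. The adhesion protein Cntn2 of parallel fibres rose by 1.49, the netrin receptor Unc5b by 1.62 and the small GTPase Rnd2 by 1.35 log2 units.

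Among Purkinje cell genes 10 of 22 rose and 3 fell, with a median of 0.52, and in junction reads 9 rose and 2 fell of 17. Calb1, the calcium buffer of Purkinje cells, had 58.9, 70.4 and 57.6 cRPKM at P1 and 170, 171 and 151 at P10 (1.39 log2 units, SE 0.26, adjusted p = 0.00585). Pcp2, a Purkinje cell regulator of G protein signalling, rose from 107, 92.2 and 207 to 488, 752 and 444. The groups did not overlap for either gene. The glutamate transporter Slc1a6 rose by 2.46 and the postsynaptic scaffold Homer3 by 2.15, whereas Foxp2, a transcription factor of young Purkinje cells, fell from 31.8, 31.6 and 29.9 to 2.38, 6.04 and 3.99 cRPKM. Pvalb, the calcium buffer shared by Purkinje cells and molecular layer interneurons, had 0, 1.46 and 0 at P1 and 92.1, 114 and 49.9 at P10. Also among the 10 largest rises, the G protein subunit Gng13 and the kallikrein protease Klk1 were listed at 0 in every P1 library and at 27.9 to 114 and 16.1 to 57.3 cRPKM at P10. Of 15 interneuron genes 0 rose and 1 fell (median −0.15), and in junction reads 0 rose and 4 fell of 9. The GABA-synthesizing enzyme Gad2 had 11.8 to 13.1 cRPKM at P1 and 10.7 to 12.2 at P10 and did not pass (adjusted p = 0.802).

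Transcripts of early neuronal differentiation moved the other way. Nnat, the imprinted neuronatin gene, had 1212, 928 and 1310 cRPKM at P1 and 220, 308 and 270 at P10, and fell by 2.11 log2 units (SE 0.19, adjusted p = 5.08e-05). Dpysl3, a collapsin response mediator that acts on the growth cone cytoskeleton, fell from 630, 496 and 640 to 110, 122 and 209 cRPKM. Its relatives Dpysl5 and Crmp1 fell by 1.66 and 1.21 log2 units. No P10 library reached a P1 value for any of the 4 genes. Of 23 genes on this list 12 fell, 0 rose and 11 did not pass (median −0.97). In junction reads 10 of 12 fell, and with the compared groups alone in the fit 8 of 23 fell in cRPKM.

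Of 39 axon guidance genes 15 fell, 2 rose and 22 did not pass (median −0.91), with 6 lower and 1 higher when the compared groups stood alone in the fit. In junction reads 28 fell and 3 rose of 38. The ephrin receptor Epha4 went from 23.7, 21.5 and 31.7 cRPKM to 3.53, 1.88 and 3.7 (fell by 2.74 log2 units, SE 0.27, adjusted p = 0.000122). The Slit receptor Robo2 went from 49.9, 38.9 and 50.5 to 15.99, 15.5 and 18.04, and the semaphorin co-receptor Plxna1 fell by 1.21. For Epha4 and Robo2 the lowest P1 library exceeded the highest P10 library by a wide margin. Among 16 imprinted growth genes 5 fell and 0 rose (median −0.72), and 5 of 10 fell in junction reads. They included the receptor adaptor Grb10 (fell by 1.83), the cell cycle inhibitor Cdkn1c (fell by 1.48) and Dlk1, a Notch-ligand relative with 7.29, 2.76 and 21.3 cRPKM at P1 and 0.65, 0 and 0 at P10.

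Among the 10 largest falls Fgf15 went from 26.0, 8.46 and 5.94 cRPKM to 0.36, 0 and 0 (fell by 3.45 log2 units, SE 0.50, adjusted p = 0.0013) and Fgf3, another fibroblast growth factor, from 6.35, 6.92 and 9.29 to 0.28, 0 and 0. Cyp26b1, which degrades retinoic acid, fell from 71.6, 101.1 and 89.0 cRPKM to 13.3, 6.89 and 12.9 and dropped by 2.91 log2 units (SE 0.29, adjusted p = 0.000131). Crabp2, which binds retinoic acid, had 6.48, 9.97 and 35.5 at P1 and 5.74, 0 and 0 at P10, and lost its call without library 15, 11 or 12. The cadherin Cdh9 and the protocadherin Pcdh8 fell by 3.32 and 2.82. The nudix hydrolase gene Nudt8 was called in cRPKM (fell by 2.87, adjusted p = 0.0185) but not in junction reads (adjusted p = 0.546), and its cRPKM call was lost without library 11 or 12.

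**Figure D2:**
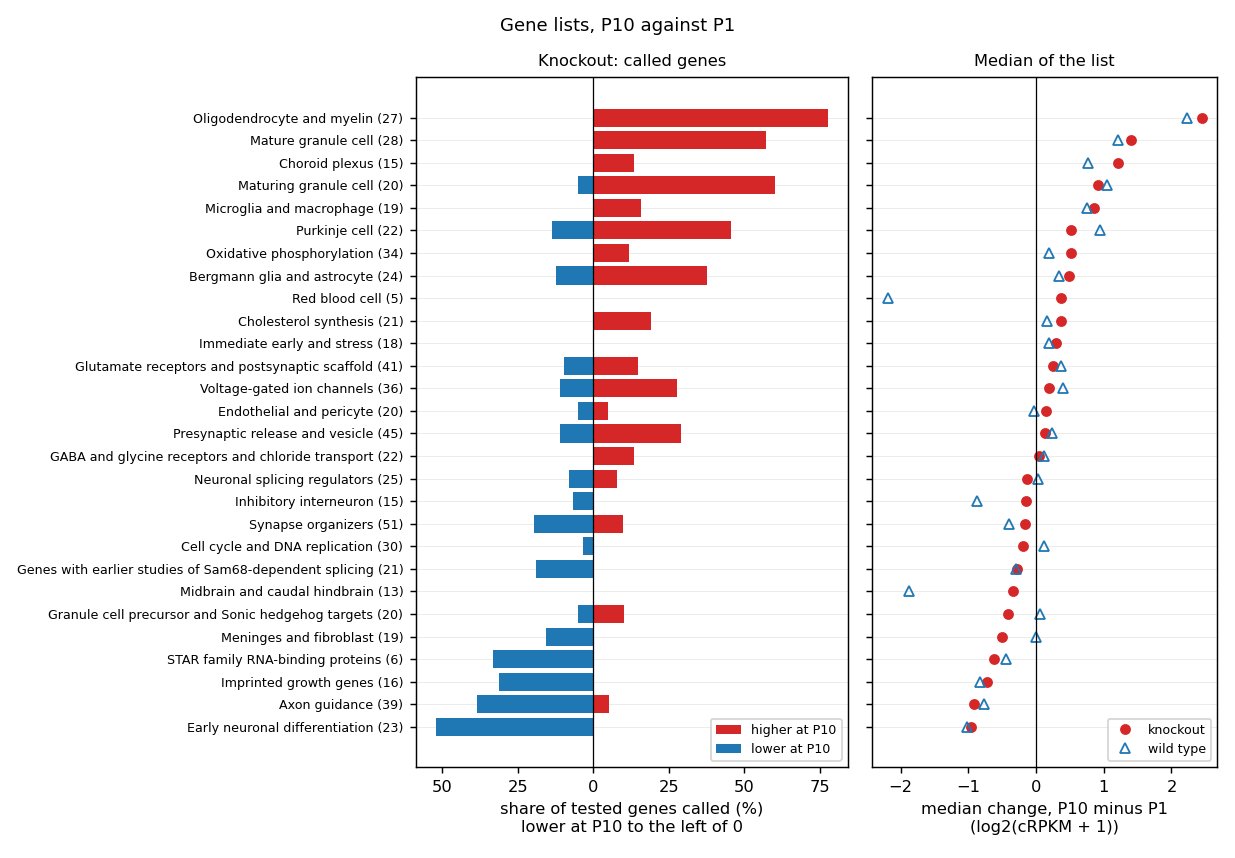
Share of tested genes called higher (red, right) or lower (blue, left) at P10 in the knockout for 28 gene lists, with the number tested in brackets, and the median change of each list in knockout (filled circles) and wild type (open triangles) in log2(cRPKM + 1). Oligodendrocyte genes lead with 21 of 27 higher, and early neuronal differentiation has the largest share lower, 12 of 23.

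Genes of dividing granule cell precursors had list medians below 0 in the knockout in both measures, while the counts of calls differed. In wild type the cRPKM medians were above 0, at 0.062 for the precursor list and 0.117 for the cell cycle list. On the list of precursor genes and Sonic hedgehog targets 2 of 20 rose and 1 fell in cRPKM (median −0.41), while 0 rose and 4 fell of 9 in junction reads (median −0.51). On the cell cycle and replication list 1 of 30 fell and 0 rose in cRPKM (median −0.19), and 1 rose and 2 fell of 22 in junction reads. Atoh1, the transcription factor that defines the precursors, had 8.4, 7.3 and 5.12 cRPKM at P1 and 6.21, 4.63 and 1.62 at P10, overlapping, and did not pass (adjusted p = 0.295). Against these medians the Wnt inhibitor Sfrp1 rose by 1.54 and the Notch target Hey1 by 0.95, a Hey1 call lost without library 12. The replication helicase subunit Mcm4 fell by 0.77 (adjusted p = 0.0488, lost without library 14, 15, 11 or 12).

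Synaptic and channel genes moved in both directions. Of 51 synapse organizers 5 rose and 10 fell (median −0.17), with the neuronal pentraxin Nptx1 up by 1.73 and the adhesion receptor Lphn2 at −1.85. Without library 10 the counts were 3 and 8, with the compared groups alone in the fit 3 rose and 2 fell of 49, and in junction reads 2 rose and 11 fell of 32. Of 41 glutamate receptor and scaffold genes 6 rose and 4 fell (4 and 2 without library 15, 10 or 11), and in junction reads 14 rose and 9 fell of 39. The metabotropic receptor Grm4 rose from 3.94, 4.21 and 3.61 cRPKM to 43.3, 56.2 and 22.9, the AMPA receptor subunit Gria4 rose by 1.13, and the kainate receptor subunit Grik3 fell by 1.92 log2 units. Among 36 ion channels 10 rose and 4 fell in cRPKM, with 4 and 1 of 35 when the compared groups stood alone in the fit. In junction reads 8 rose and 8 fell of 26 (median −0.09). Scn3a, the sodium channel of immature neurons, went from 15.7, 14.2 and 23.6 to 3.4, 2.33 and 4.67 cRPKM, while the calcium channel Cacna1a of Purkinje cells (13.4, 18.4 and 11.95 to 42.4, 45.9 and 39.97) and the potassium channel Kcna1 (2.10 log2 units) rose. Presynaptic genes numbered 13 higher and 5 lower of 45 (16 and 8 of 34 in junction reads), among them Cplx1, a clamp of vesicle fusion (1.33), Sv2b, a vesicle glycoprotein (1.33), and Sh3gl2, an endocytic protein (0.94). Of 22 inhibitory receptor and chloride transport genes 3 rose, Gabra6 and Gabrd among them, and 19 did not pass (median 0.04). In junction reads 6 rose and 2 fell of 20.

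Of 21 cholesterol synthesis genes 4 rose and 0 fell (7 rose without library 14, and 2 without library 11), and 4 of 16 rose in junction reads. In cRPKM the isomerase Idi1 rose (25.4, 21.7 and 18.6 to 45.4, 45.3 and 44.7). Of 34 oxidative phosphorylation genes 4 rose and 0 fell, with a median of 0.52. The number higher was 1 without library 10 or 11, 8 without library 15 or 12, and 0 with the compared groups alone in the fit. In junction reads 7 of 15 rose. Immediate early and stress genes had 0 calls of 18 in limma (4 at an unadjusted p below 0.05). Over all tested genes 3686 reached that unadjusted p.

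Genes of other tissues and cell types that a dissected cerebellum can hold were also read. Their counts of calls stand beside the 10.2% of all tested genes that were called. Choroid plexus genes summed to 48.7, 327 and 29.3 cRPKM at P1 and 828, 567 and 378 at P10 (15 tested, 2 higher, median 1.21). Their defining gene Ttr, a thyroid hormone carrier, had 7.32, 243 and 0 cRPKM at P1 and 640, 433 and 269 at P10, with library 14 near the P10 libraries. Meninges and fibroblast genes summed to 401 to 745 at P1 and 383 to 394 at P10 (19 tested, 3 lower), with the matrix protein Lum at −1.61 and the collagen gene Col1a1 at 5.33 to 6.8 and 3.21 to 4.84 cRPKM. Midbrain and caudal hindbrain genes summed to 10.5 to 25.5 at P1 and 1.7 to 7.0 at P10 (13 tested, 0 called in limma and 1 at an unadjusted p below 0.05). Of their defining genes Hoxa2 was listed at 0 in library 15 and in all 3 P10 libraries, and Th was at most 1.33. Microglia genes summed to 128 to 176 at P1 and 223 to 357 at P10 (19 tested, 3 higher). The number higher was 1 to 5 with a library left out and 0 with the compared groups alone in the fit. Csf1r, a growth factor receptor of microglia, did not pass (adjusted p = 0.0788). Endothelial genes had 1 higher and 1 lower of 20, and red blood cell genes 0 of 5 in limma (0 at an unadjusted p below 0.05), with Hbb-b1 between 18.6 and 407 cRPKM at P1. The part of these other tissues in the results above was not tested.

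Within the STAR family Khdrbs2, which encodes the brain-enriched Sam68 relative SLM1, had 32.7, 31.5 and 39.9 cRPKM at P1 and 16.4, 25.2 and 15.2 at P10. The groups did not overlap, and the gene fell by 0.87 log2 units (SE 0.25, adjusted p = 0.046), a call kept only without library 11. Khdrbs3, which encodes SLM2, had 31.1, 21.7 and 22.7 and then 15.5, 16.7 and 14.4, and did not pass in cRPKM (−0.65, adjusted p = 0.0849), but fell in junction reads (−0.64, adjusted p = 0.00286). Of 25 other neuronal splicing regulators 2 rose and 2 fell in cRPKM, and in junction reads 3 rose and 10 fell of 24. By junction reads 14.6% of all tested genes rose and 17.6% fell. Rbfox3, the neuronal marker NeuN, rose from 11.97, 12.7 and 13.5 cRPKM to 52.2, 51.7 and 40.6, and Mbnl2 rose by 1.35. Celf5 fell from 39.9, 43.2 and 48.6 to 16.9, 14.8 and 13.1, and Rbfox2 fell by 0.58 (adjusted p = 0.0442, kept only without library 12). Among 21 genes from earlier studies of Sam68-dependent splicing 0 rose and 4 fell, the neurexin Nrxn3, the microtubule protein Clasp1, the kinase Mtor and the matrix protease Mmp9. Without library 15, 10 or 11 there were 2, and in junction reads 0 rose and 7 fell of 18. The call of Mtor was kept only without library 14, and that of Mmp9 only without library 13 or 14.

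To ask how far the knockout followed the wild-type course, the same contrast was read in wild type (P10 and P1, n = 2 each), with which it shares no library. Both contrasts take their spread from all 5 groups, so the calls of the 2 genotypes are not independent. In wild type 569 of 14063 genes changed (4.05%), from fewer libraries than in the knockout. Of these 450 were called in the knockout in the same direction, 79.1% of the wild-type calls and 31.5% of the knockout calls, and 0 in the opposite one. Of the 1430 knockout genes 1363 had the same sign in wild type, and the share over all tested genes was not counted. Across all tested genes, which are not independent replicates, the 2 sets of changes had a Pearson correlation of 0.505. Mbp stood at 39.2 and 24.7 cRPKM in wild type at P1, above the 3 knockout libraries, and at 1384 and 1143 at P10. The difference of its age effects was 1.77 log2 units (SE 0.68, adjusted p = 0.854). For Gabra6 it was −0.32 (SE 0.69, adjusted p = 0.937).

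The age effect differed between the genotypes at 2 of 14063 genes (0.0142%), the histone gene Hist1h2ag and a predicted gene, both of which were listed at 0 in all 6 knockout libraries. Of the groups at these ages only wild type at P1 took them past the filter. An unadjusted p below 0.05 was reached by 728 genes. In junction reads the count was 0 of 11053 in limma, with 738 at an unadjusted p below 0.05. With 1 wild-type library removed, the cRPKM count was 17 (library 9), 9 (library 6), 8 (library 5) or 6 (library 8). With 1 knockout library removed it was 10 (library 14), 4 (library 10) or an unchanged 2 (library 13, 15, 11 or 12). The lists whose medians stood furthest apart in the 2 genotypes were midbrain and caudal hindbrain (−0.34 in knockout and −1.88 in wild type) and red blood cell (0.38 and −2.19), and no member of either was called in the interaction. Other medians also differed, among them interneuron (−0.148 in knockout and −0.878 in wild type), meninges and fibroblast (−0.505 and 0.004), and precursor and Sonic hedgehog genes (−0.409 and 0.062). The summed hindbrain genes were 68.2 and 29.5 cRPKM in wild type at P1, above the 10.5 to 25.5 of the knockout.

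**Figure D3:**
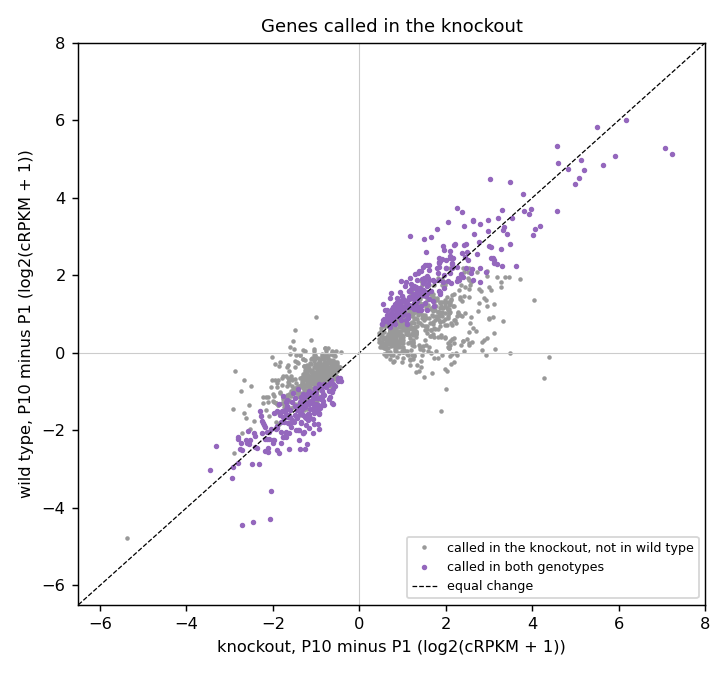
Change from P1 to P10 in the knockout (horizontal) and in wild type (vertical) for the 1430 genes called in the knockout, in log2(cRPKM + 1); purple points were called in both genotypes. Of the points 1363 lie in the quadrants of equal sign, and the 450 purple points all do.

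Splicing was then compared between the same libraries. Of 38780 tested events 316 changed by at least 10 points of PSI (0.815%, limma on log2 odds, adjusted p below 0.05), 166 upward (0.428%) and 150 downward (0.387%), in 246 genes. The libraries of the 2 ages did not overlap at 315 of them, which describes the calls only, because the share over all tested events was not counted. The called events were 36 microexons (at most 27 nt), 157 longer exons, 108 introns, 10 donor sites and 5 acceptor sites. The calling rate was 6.91% for microexons, 1.41% for longer exons, 0.496% for introns, 0.413% for donor sites and 0.172% for acceptor sites. Of the called longer exons 73.2% had a length divisible by 3, against 42.9% of the tested ones. The count rested on single libraries: it was 149 without library 10, 177 without library 11, 183 without library 13 and 570 without library 12. Of 240 genes with a called event and an expression test 66 changed in expression (27.5%), against 9.7% of the 9552 genes with any tested event.

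Microexons changed in 32 genes, 20 upward (3.84%) and 16 downward (3.07%). The rises were of 10.87 to 81.02 points, and the falls reached −61.5. Of the 36 called microexons 35 were divisible by 3, against 83.3% of the 521 tested. With a library left out the count was 19 (without 10 or 11), 20 (13), 22 (15) and 45 (12). Exons with large or well-covered changes are printed here from GENCODE M21 transcripts, 5′ to 3′, with the microexon in capitals and 12 bases of each neighbouring exon in lower case. They were matched by gene, exon length and both flanking intron lengths, which succeeded for 27 of 36, and Dctn2 is among those without a match. Positions are of mm9, as deposited.
Nfasc 18 nt, chr1:134534441-134534458: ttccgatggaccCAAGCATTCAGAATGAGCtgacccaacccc
Nfasc 15 nt, chr1:134489928-134489942: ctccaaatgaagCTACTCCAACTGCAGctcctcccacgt
Kif3a 9 nt, chr11:53404219-53404227: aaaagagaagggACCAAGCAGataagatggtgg
Ryr2 24 nt, chr13:11726574-11726597: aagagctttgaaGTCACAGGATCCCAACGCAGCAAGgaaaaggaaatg
Ryr1 15 nt, chr7:29841253-29841267: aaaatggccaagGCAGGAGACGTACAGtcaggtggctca
Sidt1 15 nt, chr16:44256080-44256094: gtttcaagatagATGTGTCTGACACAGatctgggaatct
Spag9 12 nt, chr11:93940513-93940524: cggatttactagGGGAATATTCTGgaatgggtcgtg
Clasp2 27 nt, chr9:113774204-113774230: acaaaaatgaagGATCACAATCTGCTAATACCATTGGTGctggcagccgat
Cadps2 15 nt, chr6:23270933-23270947: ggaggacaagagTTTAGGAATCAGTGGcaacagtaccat
Each neighbouring context is 1 of those in GENCODE, which gives 3 for Kif3a and 2 for the 15 nt exon of Nfasc.

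Neurofascin, the adhesion protein of axon initial segments and nodes, changed at both microexons. Its 18 nt exon was included at 80.8%, 76.3% and 81.3% at P1 in libraries 13, 14 and 15 and at 21.2%, 16.2% and 16.5% at P10 in libraries 10, 11 and 12 (139 to 661 reads a library, adjusted p = 8.55e-06). Its 15 nt exon went from 82.0%, 78.2% and 79.5% to 52.3%, 48.4% and 45.4% (adjusted p = 0.000559). Both fell. The Nfasc locus also held a called intron of 1116 nt, from 65.1% to 87.0% at P1 to 11.9% to 18.9% at P10. The 9 nt exon of Kif3a, a kinesin motor subunit of axonal and ciliary transport, was nearly always included at P1 (98.5%, 97.1% and 97.3%) and less at P10 (81.8%, 81.8% and 78.4%), with at least 1616 reads a library (adjusted p = 2.5e-05).

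The cytoskeletal linker Clasp2, a microtubule plus-end protein, went from 45.1%, 53.9% and 65.7% to 17.8%, 22.6% and 17.8% (adjusted p = 0.00675). Every P10 library lay below every P1 library.

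The ryanodine receptor Ryr2 included its 24 nt exon at 43.7%, 43.2% and 49.9% at P1 and 90.9%, 93.1% and 85.4% at P10 (adjusted p = 0.000797). Ryr1 showed the largest rise of any event, from 16.3%, 6.8% and 0% to 100%, 85.4% and 80.8%, on 10 to 25 reads a library (adjusted p = 0.00409). The replicates of an age were more spread in Ryr1 than in Ryr2.

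Other microexons belonged to transport and secretion. A 3 nt exon of Dctn2, a dynactin subunit, rose from 41.8%, 42.5% and 39.9% to 74.2%, 72.4% and 66.5% on at least 1392 reads a library (adjusted p = 0.000646). Spag9, a scaffold for motor cargo, gained a 12 nt exon (12.6%, 11.7% and 11.96% to 27.4%, 25.7% and 27.02%, adjusted p = 0.000873). The 15 nt exon of the RNA transport gene Sidt1 rose from 37.8%, 29.8% and 45.2% to 96.5%, 94.0% and 96.1%, on 15 to 53 reads. Spag9 had close replicates at both ages. Cadps2, a regulator of dense core vesicle release in granule cells, lost its 15 nt exon (28.8%, 23.0% and 21.5% to 7.2%, 4.04% and 11.3%, adjusted p = 0.0194, lost without library 13, 14, 10 or 11).

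**Figure D4:**
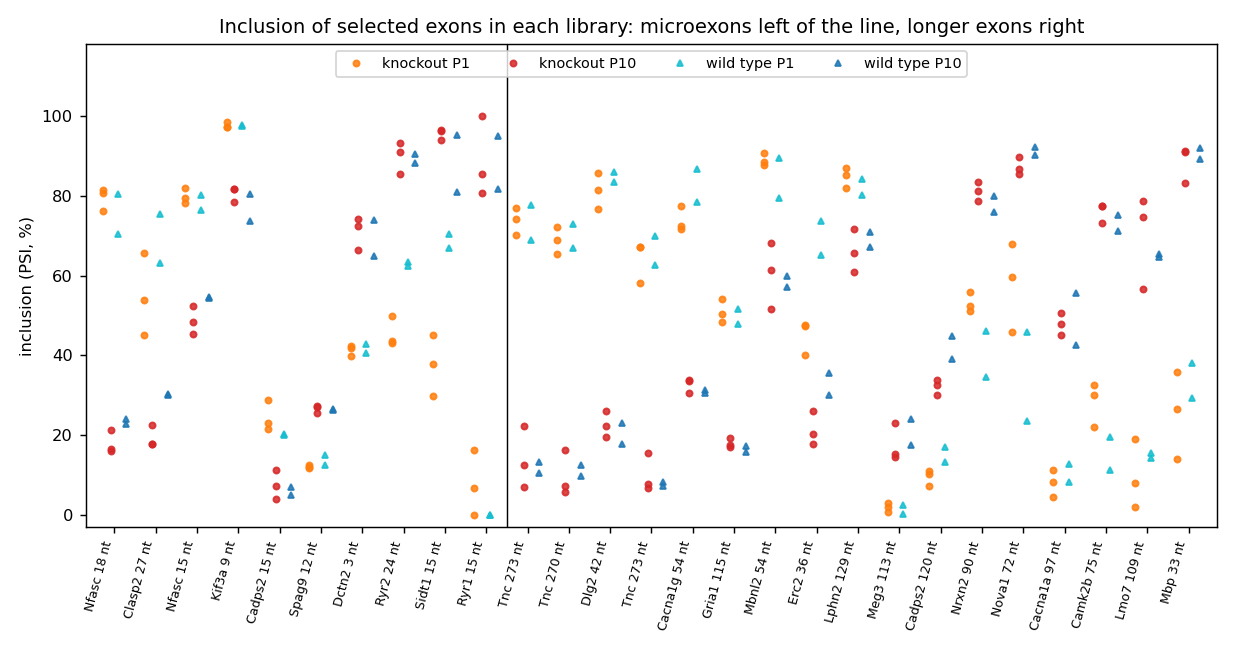
Inclusion (PSI, %) of selected microexons and longer exons in each knockout and wild-type library at P1 and P10; points are libraries with at least 10 reads. The Nfasc 18 nt exon falls from about 80.8% to 16.5% and the Ryr2 exon rises to at least 85.4% in the knockout, and the wild-type triangles lie on the same side at each age.

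Among longer exons, genes of the synapse and of excitability were prominent by the naming rule. Dlg2, the postsynaptic scaffold PSD-93, included a 42 nt exon (chr7:99569142-99569183) at 85.6%, 76.7% and 81.3% at P1 and 19.5%, 22.4% and 26.1% at P10 (adjusted p = 9.99e-06). Gria1, an AMPA receptor subunit, lost a 115 nt exon (chr11:57123271-57123385; 54.1%, 48.4% and 50.5% to 17.7%, 17.0% and 19.3%, adjusted p = 2.86e-05). Camk2b, the beta subunit of the synaptic kinase CaMKII, gained a 75 nt exon (chr11:5887060-5887134; 22.1%, 30.01% and 32.6% to 77.4%, 73.2% and 77.5%, adjusted p = 3.11e-05). All 3 had at least 489 reads a library, and none overlapped. The 90 nt exon of Nrxn2 (chr19:6513716-6513805), a gene on the list of earlier Sam68 studies, rose from 51.0%, 52.4% and 55.9% to 81.2%, 78.7% and 83.4% (adjusted p = 0.000556). In all 9 of 114 tested events on that list changed, where 0.815% of all tested events were called. The choice of the list with earlier results known leaves its share as a description. The active zone gene Erc2 had a 36 nt exon at 40.1% to 47.7% and then 17.7% to 26.2% (adjusted p = 0.0418), a call that no removal of a library left standing.

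Ion channels changed at 11 of 176 tested events, in 7 genes. Of all tested events 0.815% were called, with 1.41% for longer exons and 0.496% for introns. Cacna1a, whose transcript also rose, gained a 97 nt exon (chr8:87138594-87138690; 8.33%, 11.2% and 4.66% to 50.5%, 47.9% and 45.0%, adjusted p = 0.000377). Cacna1g, the T-type calcium channel, lost a 54 nt exon (72.4%, 71.5% and 77.4% to 30.5%, 33.8% and 33.5%, adjusted p = 0.00134). In both exons the replicates of an age lay close together and the ages far apart. Itpr1, the inositol trisphosphate receptor of Purkinje cells, moved from 85.6%, 80.4% and 81.6% to 45.1%, 46.0% and 47.6% use of 1 donor site, 27 nt from its alternative (adjusted p = 0.000277). The overlapping intron (chr6:108338333-108339360) fell with it, from 64.6% to 70.9% at P1 to 24.5% to 29.8% at P10.

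Glial genes carried some of the largest changes. A 33 nt exon of Mbp rose from 26.6%, 35.8% and 14.02% to 91.0%, 91.2% and 83.1% (adjusted p = 5.88e-05), on 33 to 133 reads a library at P1 and 8703 to 19939 at P10. Tnc, the matrix protein tenascin-C of glia, held all 6 called events of the 33 tested on the glial list, where 0.815% of all tested events were called. The 3 with the smallest p were exons of 273, 270 and 273 nt on chromosome 4, all less included at P10. The 1 at chr4:63660947-63661219 went from 76.9%, 74.2% and 70.2% to 7.06%, 12.5% and 22.2% (adjusted p = 0.000857). The other named Tnc exons changed by −58.9 and −54.02 points, and library 12 was the highest P10 library in each. A 109 nt exon of Lmo7, a junction and cytoskeleton protein, rose from 7.94%, 19.1% and 2.04% to 74.6%, 56.5% and 78.6% on 25 to 48 reads.

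Exons of 2 neuronal splicing regulators changed. Nova1, an RNA-binding protein of neurons, gained a 72 nt exon (45.9%, 59.6% and 68.0% to 86.7%, 85.5% and 89.8%, adjusted p = 0.00975), and Mbnl2 lost a 54 nt exon (88.6%, 87.7% and 90.6% to 61.3%, 51.6% and 68.1%, adjusted p = 0.00597). Both had at least 183 reads a library and no overlap. They were the 2 called among 116 tested events of all kinds on that list, where 0.815% of all tested events were called. The change of the Nova1 exon was 29.5 points in the knockout and 56.6 in wild type, and the difference did not pass (−27.05, adjusted p = 1).

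Retained introns numbered 56 upward (0.257%) and 52 downward (0.239%). In the myelin gene Mog 4 introns were listed at 100% in all 3 P1 libraries and at 1.87% to 8.3% at P10 (adjusted p at most 2.57e-06), on 20 to 61 reads a library at P1 and 70 to 464 at P10. A 31298 nt intron of Kalrn, a synaptic exchange factor for small GTPases, rose from 12.4%, 10.95% and 7.69% to 64.2%, 73.5% and 82.7% (adjusted p = 0.000313). Igf2bp3, an RNA-binding protein of fetal tissue, had an intron at 3.0% to 4.76% and then 26.1% to 41.7% (adjusted p = 0.0204, lost without library 13, 14, 15, 10 or 11). Whether the counting used strand is not given in the sources used here, so reads of an overlapping or antisense gene could enter an intron's value. For Khdrbs1 an 11453 nt intron had 12.7%, 9.3% and 19.1% at P1 and 1.33%, 0% and 4.76% at P10 (adjusted p = 0.0413, kept only without library 12). It had 31 to 50 reads a library, most of them against retention.

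In wild type 237 of 36346 events changed between P1 and P10 (0.652%). Of these 137 were called in the knockout in the same direction, 57.8% of the wild-type calls and 43.4% of the knockout calls, and 0 in the opposite one. Of the 290 knockout events with a wild-type value all 290 had the same sign, with the share over all tested events not counted. All 36 microexons did too, and 17 were called in wild type. The Nfasc 18 nt exon changed by −51.9 points in wild type and −61.5 in the knockout, the Dlg2 exon by −64.0 and −58.5, and the Gria1 exon by −33.0 in both. The Sidt1 exon differed most among the named microexons, at 57.9 points in the knockout and 19.4 in wild type, where it did not pass (adjusted p = 0.308), and the difference did not pass (38.6 points, adjusted p = 1). The age effect on splicing differed between the genotypes at 0 of 35881 events in limma, with 928 at an unadjusted p below 0.05, 5 calls without wild-type library 6 and 1 without wild-type library 8.

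**Figure D5:**
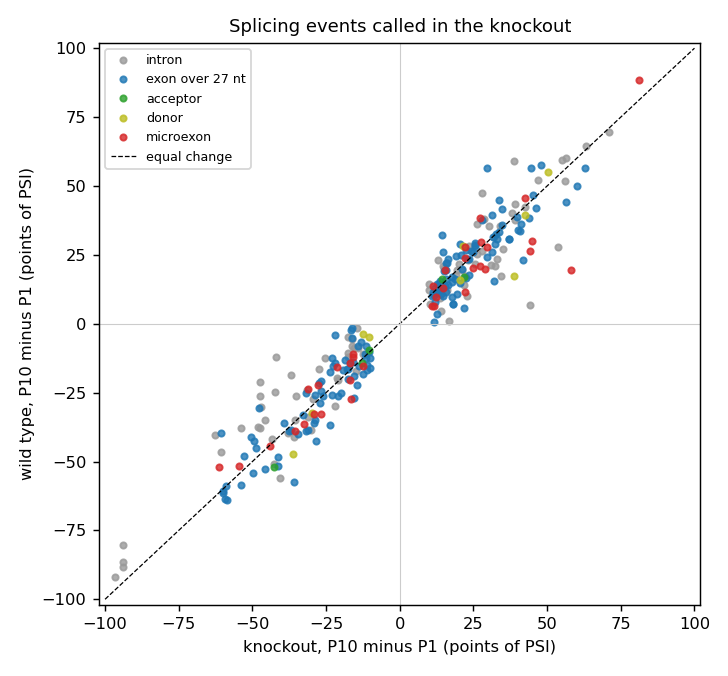
Change of inclusion from P1 to P10 in the knockout (horizontal) and wild type (vertical), in points of PSI, for the 290 called knockout events with a wild-type value, coloured by kind. All points lie in the quadrants of equal sign, with the 4 Mog introns at the lower left and the Ryr1 microexon at the upper right.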

How the data were processed

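Of 13 libraries, the 6 from knockout cerebella are described. The authors deposited expression as cRPKM, an RPKM corrected for mappable length, and splicing as percent inclusion with a quality field holding the supporting counts of reads. Per the submitters' processing notes FastQC and Trimmomatic were used (versions not given) on build mm9, with aligner and counting program not given in the sources used here. Of 22667 genes 21553 had values, and those with a group mean of at least 1 cRPKM were tested as log2(cRPKM + 1). Of 283765 events 253155 were used, and splice sites that add no bases were dropped. An event needed 10 reads in a library, values in 2 libraries of each group and a mean PSI of 5 to 95, and a call needed 10 points. Log2 odds (0.5 added to the reads) and log2 expression were fitted with limma 3.58.1 (R 4.3.3) over all 5 groups (8 residual degrees of freedom) with Benjamini-Hochberg adjustment over all features. The tests were tried on simulated data.

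Named are Khdrbs1 to Khdrbs3, the 10 top rises and 10 top falls, of genes and of events, among calls whose ages did not overlap, up to 4 genes and 3 called events of each of 28 lists by smallest p, the 10 called microexons with the smallest p, the tissue markers and every gene whose age effect differed between genotypes. Predicted genes could be left out, and some genes that meet this rule are not reported here. Members and lists were chosen with earlier results of these data known. Alternatives were the pseudocount, the filters, centring, junction reads, the groups in the fit and each library left out. Intervals of counting error are not given, and the number of libraries and the reads behind each value limit the precision.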

Additional observations from a re-analysis of the deposited data

Results flagged for a closer look

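Hist1h2ag, 1 of many near-identical histone genes, had an age effect that differed between the genotypes by 3.68 log2 units (limma, SE 0.43, adjusted p = 0.0134). It was listed at 10.03 and 13.9 cRPKM in wild type at P1 and at 0 in every other library of both genotypes, so the change was in wild type (2 of 2 libraries). Hist1h2ag passed the filter only through wild type at P1, where it was high, and the groups at 0 added no spread to the test. Its p-value is therefore a description only. The call was lost with a group mean of at least 5 cRPKM (adjusted p = 0.844) and with the groups compared alone in the fit (Hist1h2ag adjusted p = 0.396).

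The predicted gene Gm10479 differed by 5.66 log2 units (SE 0.59, adjusted p = 0.00853). It was listed at 29.6 and 82.2 cRPKM in wild type at P1, at 0 in wild type at P10, and at 0 in all 6 knockout libraries. Of the groups at these ages only wild type at P1 took Gm10479 past the filter, so its p-value too is a description only. In the exon junction reads the knockout had 20.4 to 29.1 RPM at P1 and 10.2 to 12.3 at P10, and the difference between genotypes was 0.05 (adjusted p = 0.972).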

How the results depend on the processing

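With the groups compared alone in the fit, the knockout calls were 366 genes and 121 events, the wild-type calls 62 events, and the age effect differed at 0 genes. Junction reads gave 3564 genes in the knockout, 2616 in wild type and 0 for the difference, which was 1 gene with a group mean of at least 5 cRPKM. Without a limit on mean PSI there were 189 events in the knockout and 85 in wild type, and 197 knockout events changed by at least 20 points. With 1 library left out, the counts ran from 886 to 1786 genes and 149 to 570 events in the knockout, 200 to 440 genes and 72 to 247 events in wild type, and 2 to 17 genes and 0 to 5 events for the difference. Of 91 named called genes 70 kept their call without each knockout library, and of 56 named events 44.

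Signs changed only for genes with small or uncertain changes. In junction reads these were Khdrbs1 (0.03), Col1a1 (0.06) and Th (−0.26). With 1 library left out, the changes ran from −0.094 to 0.758 for Alas2 (below 0 without library 14 or 11), −0.268 to 0.557 for Cldn5, −0.844 to 1.348 for Hbb-b1 and −0.162 to 0.733 for Hbb-b2 (below 0 without library 13), and −0.179 to 0.021 for Gdf10 (above 0 without library 14, 10 or 12). The cause was not tested. No paired analysis was possible because the groups share no replicate numbers.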

Other observations

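The 3 knockout P10 libraries did not lie equally far from P1. Among 1058 called genes with junction reads, library 12 was the P10 library nearest to P1 in 661 (62.5%), library 11 in 273 (25.8%) and library 10 in 124 (11.7%), while over all tested genes library 12 held 47.5%. In PSI it was nearest in 167 of 302 called events (55.3%), against 41.7% of all tested events. In cRPKM it was nearest in 47.5% of the called genes and 39.6% of all tested genes. The myelin genes summed to 3253 and 3261 cRPKM in libraries 10 and 11 and to 1808 in library 12, and the mature granule cell genes to 1661, 1794 and 1291. Among the P1 libraries, library 14 was nearest to P10 in 51.0% of called genes by cRPKM (39.6% of all tested genes) and in 45.9% of called events (35.2% of all tested events). The cause was not tested.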
